A study of Homo sapiens with 9 samples.

Results

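The 10 genes examined encode fatty acid desaturases (SCD, SCD5, FADS1, FADS2 and FADS3) and elongases of very long chain fatty acids (ELOVL1, ELOVL2, ELOVL4, ELOVL5 and ELOVL6). They were taken by their gene name in the array files with every probe kept, which gave 14 probes on 18 spots out of 42405 probes on the array. Of these, 13 probes were well above background on all 9 arrays and entered the test of 29134 probes, and at least 1 probe of every gene was among them. The family was chosen by the paraoxon and control signals of 1 SCD5 probe, which was higher with paraoxon, so the paraoxon and control values of these probes are given as a description and not as a test.

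RNA came from cultures of NT2, an embryonal carcinoma line of human origin whose cells begin to turn into neuron-like cells under retinoic acid. All cultures received 10 µM retinoic acid for 4 days (96 h), and they carried either no compound (control), 1 µM paraoxon or 5 µM mipafox over that time. Both are organophosphorus compounds. The comparisons ask which transcripts differ after exposure to one that does not cause delayed neuropathy (paraoxon) or to one that does (mipafox). Each treatment was measured on 3 one-colour arrays lettered A, B and C, which the paper calls technical replicates and the labels biological replicates, so p-values describe the spread between these arrays, which may be technical. The doses differ, and all values come from 1 cell line at 1 time point.

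Stearoyl-CoA desaturases put the first double bond into saturated acyl chains and make oleate and palmitoleate. SCD is the main form in most tissues, and SCD5 is another form of the human genome, known for its expression in brain. FADS2 and FADS1 add further double bonds to the essential polyunsaturated fatty acids, and the ELOVL enzymes carry out the condensation step that lengthens acyl chains, with ELOVL1 and ELOVL6 acting on saturated and monounsaturated chains, ELOVL2 and ELOVL5 on polyunsaturated ones and ELOVL4 on the very longest, which are prominent in retina and brain.

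SCD5 was the gene with 1 probe unlike its others, so the beginning (the first 30 of 60 bases) of each of its probes is shown, with that of the single SCD probe beside them. Coordinates are on hg19 as the array files give them, and the bases run 5′ to 3′ as the files list them, with none in capitals because no stretch of them is singled out.
SCD5 A_33_P3386288, chr4:83582046-83582105, minus strand: tacatactcattgtaaccactccgaaaagt
SCD5 A_23_P354965, chr4:83581608-83581667, minus strand: catacagcactctataggagatattccatt
SCD5 A_33_P3258660, chr4:83719504-83719563, minus strand: agaacatcgtctggaggaatgtcgtcctga
SCD5 A_24_P385134, chr4:83551061-83551120, minus strand: gaccatcagatcttgagaaccaacagttat
SCD A_32_P163858, chr10:102123917-102123976, plus strand: aaatggaaaattttctcctcggtttgctag
The files assign the first 3 SCD5 probes to the transcript NM_024906 and the fourth to NM_001037582. Between A_33_P3386288 and A_23_P354965 the distance is 438 bases both along the transcript and along the genome, so no intron lies between these probes. From A_33_P3258660 to A_33_P3386288 it is 567 bases along the transcript and 137458 along the genome. Exon numbers and untranslated regions were not assigned, because an hg19 annotation was not used here.

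Signals below are log2 of the processed signal minus the 75th percentile of the array, in the order A, B and C, and they are compared between arrays for the same probe only. The 3 control arrays and mipafox A lay on slide 1, and the 3 paraoxon arrays with mipafox B and C lay on slide 2, so paraoxon and control shared no slide. The share of probes well above background ranged from 65.7% to 73.6% over the 9 arrays, and the 75th percentile of the processed signal from 802 to 1590. The cells carried the markers of their label, since 10 of 10 embryonal carcinoma genes and 9 of 9 retinoic acid response genes were well above background on all 9 arrays, as were 8 of 11 neural genes. Among markers of other cells, 3 of 6 fibroblast genes, 4 of 6 glial genes and 2 of 7 hepatocyte and adipocyte genes were above background on every array, while GFAP, SOX10, CYP3A4, ADIPOQ, LEP and PLIN1 were above it on none. The median signal of these lists against the control mean, over their tested probes, ranged over the 9 arrays from -0.32 to 0.24 for the embryonal carcinoma genes, from -0.18 to 0.14 for the retinoic acid response genes, from -0.09 to 0.08 for the neural genes, from -0.23 to 0.23 for the fibroblast genes, from -0.07 to 0.30 for the glial genes and from -0.41 to 0.29 for the hepatocyte and adipocyte genes. The part of these differences in the results was not tested.

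SCD5 A_33_P3386288, the probe that chose the family, had signals of -5.14, -4.80 and -4.85 in control, of -2.88, -2.76 and -3.44 with paraoxon and of -5.25, -4.00 and -4.03 with mipafox. All 3 paraoxon arrays lay above all 6 other arrays, and mipafox fell into a low array on slide 1 and a pair of higher arrays on slide 2. Means were -4.93 ± 0.18 in control, -3.03 ± 0.36 with paraoxon and -4.43 ± 0.71 with mipafox (SD, n = 3 arrays each), which puts paraoxon 1.90 above control on the log2 scale, or 3.74-fold. As RNA was taken from whole cultures, more cells that express the gene and more RNA per cell cannot be told apart. The probe was well above background on all 9 arrays, although the scanner software marked its spot as found on only 6 of them and not on control A, control B or mipafox C.

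The size of the paraoxon difference moved with the processing and the slides. It was 1.08 in the log2 values deposited by the authors, 1.00 after normexp background correction with quantile normalization, and 0.67 with slide as a block. Values with slide as a block rest on mipafox, the only treatment on both slides, which had 1 array on slide 1. Along the steps that the slides allow, the probe was 0.32 lower on mipafox A than the control mean within slide 1, 1.23 higher on mipafox B and C than on mipafox A between the slides, and 0.99 higher with paraoxon than on mipafox B and C within slide 2. Of all tested probes, 98.4% had a smaller or more negative step between mipafox A and mipafox B and C than this one, and treatment and slide cannot be told apart for paraoxon against control.

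The remaining SCD5 probes did not share the pattern of A_33_P3386288. A_33_P3258660 had signals of -5.07, -5.59 and -5.52 in control, of -5.50, -5.35 and -5.49 with paraoxon and of -5.34, -5.11 and -5.51 with mipafox. These ranges overlapped, and the mean with paraoxon was 0.05 below control, against a standard error of 0.18. A_24_P385134 had signals of -3.56, -3.44 and -3.44 in control, of -3.75, -3.06 and -3.77 with paraoxon and of -4.15, -3.51 and -2.86 with mipafox. Here the control arrays lay close together and the treated arrays scattered around them, with a mean with paraoxon also 0.05 below control and a standard error of 0.31. With slide as a block its differences were -1.01 with paraoxon (standard error 0.43) and -0.67 with mipafox, so that the value at this probe depended on how the slides were treated. The fourth probe, A_23_P354965, which lies 438 bases from A_33_P3386288 in the same transcript, was not well above background on any of the 9 arrays and was not tested.

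**Figure D1:**
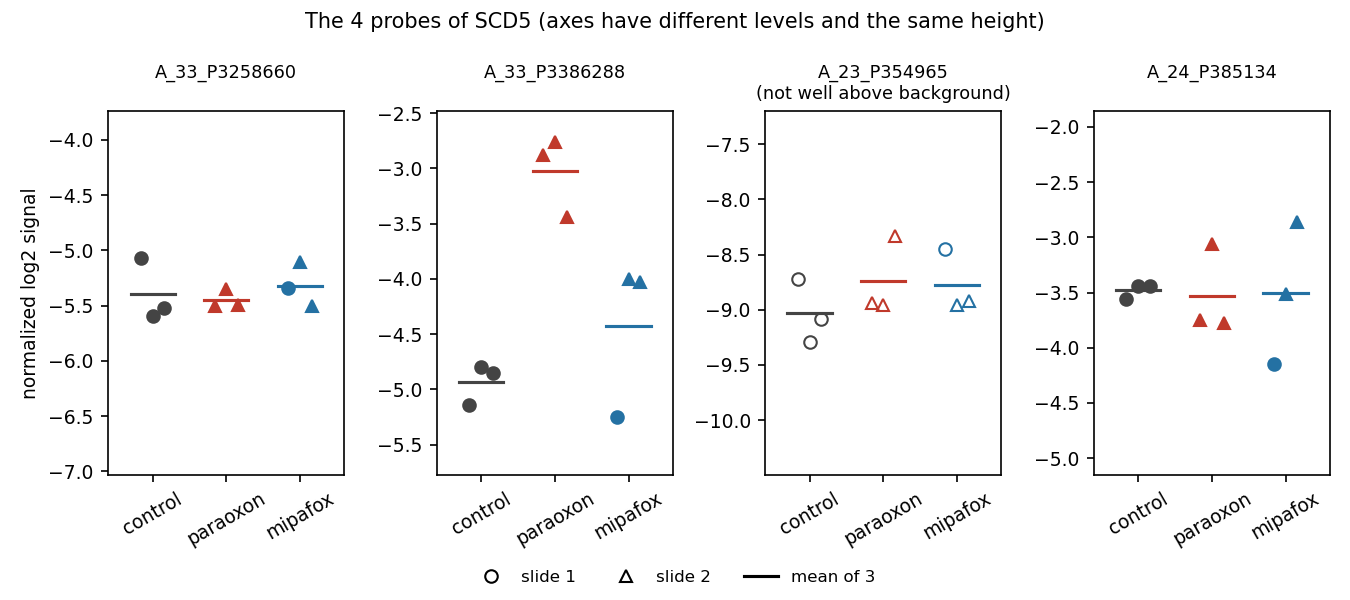
Normalized log2 signal (vertical axis) of the 4 SCD5 probes by treatment, 1 point per array, with circles for slide 1, triangles for slide 2 and a line at the mean of 3 arrays. Axes span the same height at different levels. Only at A_33_P3386288 do the paraoxon arrays, from -3.44 to -2.76, stand above all control and mipafox arrays; open symbols mark the probe that was not well above background.

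SCD, the main stearoyl-CoA desaturase, had signals of 1.34, 1.14 and 1.43 in control, of 1.20, 2.45 and 0.62 with paraoxon and of 1.22, 0.47 and 2.15 with mipafox. Paraoxon B and mipafox C were the highest arrays and mipafox B and paraoxon C the lowest, so both treatments reached above and below the control range. Means were 1.30 ± 0.15 in control, 1.42 ± 0.94 with paraoxon and 1.28 ± 0.84 with mipafox (SD, n = 3 arrays each). SCD was spotted on 2 places of each array, and these differed by at most 0.19 on any array, while the arrays spanned 1.98. Its pooled SD within treatments was 0.73, larger than that of 96.3% of tested probes, whose median was 0.25. The paraoxon difference of 0.12 became -0.40 without paraoxon B and 0.52 without paraoxon C, and the mipafox difference of -0.02 became -0.45 without mipafox C and 0.39 without mipafox B.

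A pair of further probes had paraoxon B and mipafox C as their highest arrays, SCD5 A_24_P385134 above and ELOVL4, the elongase of the longest chains. ELOVL4 had signals of -1.95, -1.67 and -1.53 in control, of -1.56, -1.30 and -1.42 with paraoxon and of -2.14, -1.83 and -1.22 with mipafox, and all treatments overlapped. The paraoxon difference of ELOVL4 was 0.29, and with slide as a block it turned to -0.33. Thus 3 of the 13 tested probes had paraoxon B and mipafox C highest, in either order, as did 6.69% of all tested probes. The deviations of paraoxon B and mipafox C from their treatment means had a correlation of 0.66 over all tested probes, which are not independent of each other. Those of control C, on slide 1, had correlations of 0.66 with paraoxon B and 0.57 with mipafox C.

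**Figure D2:**
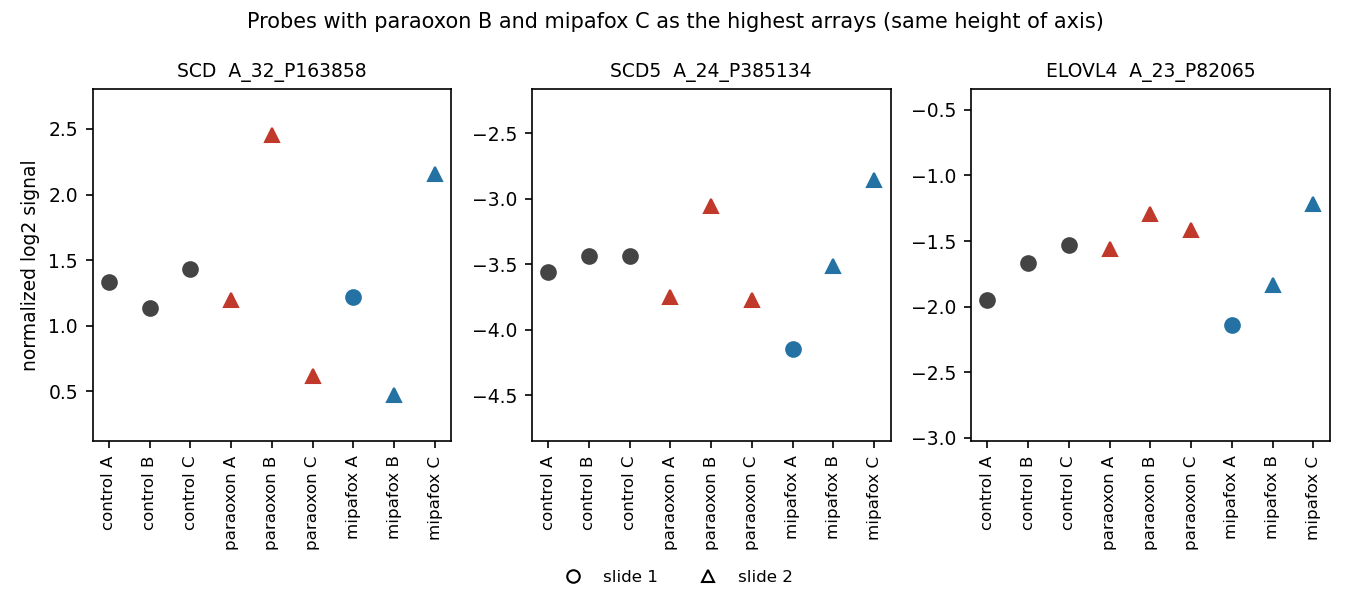
Normalized log2 signal (vertical axis) on each of the 9 arrays (horizontal axis) for SCD, SCD5 A_24_P385134 and ELOVL4, with circles for slide 1, triangles for slide 2, and grey for control, red for paraoxon and blue for mipafox. Paraoxon B and mipafox C are the highest arrays in each panel, at 2.45 and 2.15 for SCD.

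The polyunsaturated desaturases varied little. FADS1, which acts late in the synthesis of arachidonate and related acids, had signals of 4.62, 4.58 and 4.50 in control, of 4.53, 4.57 and 4.80 with paraoxon and of 4.82, 4.67 and 4.42 with mipafox. FADS2, which takes the first step of that pathway, had signals of 3.76, 3.61 and 3.52 in control, of 3.52, 3.39 and 3.67 with paraoxon and of 3.77, 3.85 and 3.68 with mipafox. Their whole ranges over 9 arrays were 0.40 and 0.45, the smallest of the 13 tested probes, and each gene's treatments overlapped with control. The mean of FADS1 was 0.07 above control with either compound, and that of FADS2 was 0.10 below control with paraoxon and 0.13 above it with mipafox, with standard errors of 0.15 and 0.14. With slide as a block the paraoxon difference was 0.34 for FADS1 (standard error 0.24) and -0.10 for FADS2.

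FADS3, whose substrates are less well known than those of its neighbours, had signals of -0.24, -0.36 and -0.35 in control, of -0.42, -0.41 and -1.32 with paraoxon and of -0.22, -0.64 and -0.59 with mipafox. The paraoxon arrays lay below the control arrays, but 1 of them, paraoxon C, set most of the difference, which was -0.40 over all arrays and -0.10 without it. With slide as a block the paraoxon difference was -0.0011 and that of mipafox turned from -0.17 to 0.10. The FADS probes lie together on chromosome 11, within chr11:61567126-61645033 of hg19, a stretch of 77908 bases. These neighbours did not share an order of arrays: FADS1 was highest on mipafox A, FADS2 on mipafox B and FADS3 on mipafox A, and lowest on mipafox C, paraoxon B and paraoxon C in turn.

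Among the elongases of saturated and monounsaturated chains, ELOVL1 had signals of 0.01, -0.40 and -0.29 in control, of -0.58, -0.60 and -0.67 with paraoxon and of -0.06, -0.57 and -0.46 with mipafox. The paraoxon arrays lay below all control arrays, by 0.39 in the mean, and the slide 2 arrays of mipafox lay 0.45 below the slide 1 array. With slide as a block the paraoxon difference was 0.06, in the other direction. ELOVL6, which takes palmitate to stearate, was measured by a pair of probes. A_23_P7361 had signals of 1.80, 1.68 and 1.60 in control, of 1.43, 1.38 and 1.75 with paraoxon and of 1.95, 1.67 and 1.61 with mipafox. A_32_P80597 had signals of -1.93, -1.75 and -1.74 in control, of -1.34, -1.29 and -1.86 with paraoxon and of -1.95, -1.72 and -1.45 with mipafox. With paraoxon the former averaged 0.17 below control and the latter 0.31 above it, and the ranges of both overlapped with control. With slide as a block both turned, to 0.14 and -0.06.

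Among the elongases of polyunsaturated chains, ELOVL2, which lengthens the precursors of docosahexaenoate, had signals of 0.36, 0.40 and 0.35 in control, of 0.41, 0.57 and 0.49 with paraoxon and of 0.41, 0.14 and 0.05 with mipafox. The control arrays spanned less than the step to either treatment: paraoxon lay 0.12 above them in the mean and mipafox 0.17 below, with a standard error of 0.14. With slide as a block paraoxon lay 0.44 above control, and mipafox turned to 0.04 above it. ELOVL5 had signals of 1.58, 1.98 and 2.06 in control, of 1.96, 2.24 and 1.40 with paraoxon and of 1.65, 1.65 and 1.996 with mipafox. Its means lay within 0.11 of each other, inside the spread of each treatment. ELOVL2, ELOVL4 and ELOVL5 all lie on chromosome 6, and ELOVL2 had one of the smaller spreads within treatments, at 0.12, while those of ELOVL4 and ELOVL5 were 0.31 and 0.31.

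**Figure D3:**
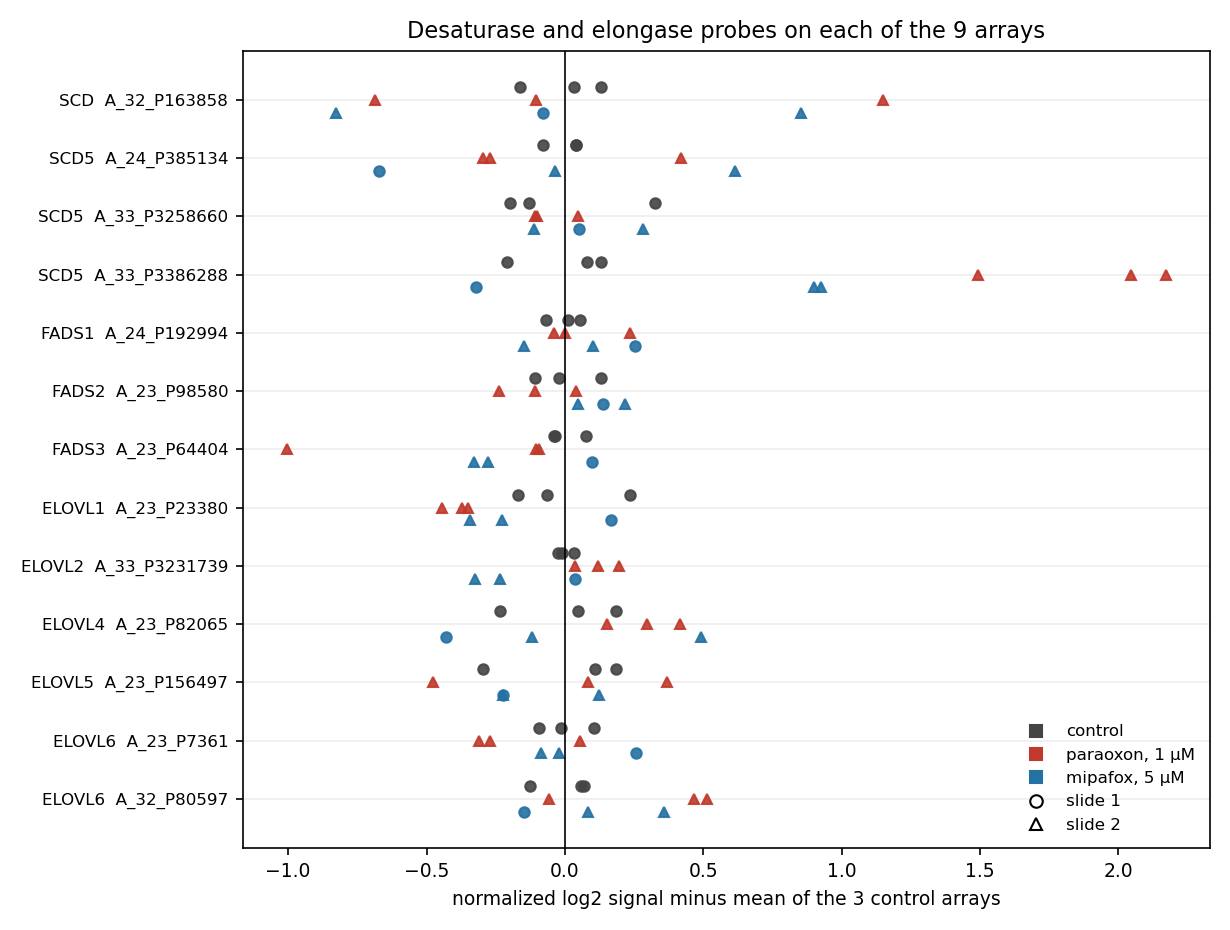
Normalized log2 signal minus the mean of the 3 control arrays (horizontal axis) for the 13 tested probes, 1 point per array, coloured by treatment, with circles for slide 1 and triangles for slide 2. SCD5 A_33_P3386288 stands apart with paraoxon, from 1.49 to 2.17, while SCD spreads to both sides with both compounds.

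Seen over the family, 0 of the 13 tested probes were called for paraoxon against control by limma, where calls were made at an adjusted p under 0.05 with a change of more than 1 on the log2 scale, as against 0.0% of all tested probes. At an unadjusted p under 0.05 with the same fold limit it was 1 probe, SCD5 A_33_P3386288, as against 2.19% of all. The paraoxon arrays did not overlap with control at 2 probes that were higher (SCD5 A_33_P3386288 and ELOVL2, as at 12.4% of all tested probes). They did not overlap at 2 that were lower (FADS3 and ELOVL1, 11.1%). At ELOVL2 they were barely apart, with the lowest paraoxon array at 0.406 and the highest control array at 0.404. These counts come from the contrast that chose the family. The paper, with the same limits of fold and adjusted p, lists SCD5 among the genes altered by paraoxon, at 1.08. Here the deposited log2 values gave 1.08 at SCD5 A_33_P3386288, with an adjusted p of 0.0671 in limma. The median log2 fold change of the 13 probes was -0.01, beside 0.01 for all tested probes, and apart from SCD5 A_33_P3386288 the changes lay between -0.40 and 0.31.

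For mipafox against control, which uses the same control arrays, 0 of the 13 tested probes were called by limma, as against 0.0% of all tested probes, and 0 passed an unadjusted p under 0.05 with the fold limit, as against 0.844%. None of the 13 had mipafox arrays that all lay above control (5.34% of all tested probes) or all below it (6.46%). The largest difference among them was again at SCD5 A_33_P3386288, at 0.50 with a standard error of 0.33, a 95% interval from -0.25 to 1.25 and an adjusted p of 0.847 in limma, and it was -0.32 on mipafox A, the array that shared a slide with control. The other 12 probes changed by -0.17 to 0.13, with adjusted p-values of at least 0.885 in limma. With array weights, SCD5 A_33_P3386288 changed by 0.69 with mipafox (adjusted p = 0.0364 in limma) and SCD5 A_33_P3258660 by 0.38 (adjusted p = 0.0458 in limma), both within the fold limit. The median of all 13 was -0.02, beside 0.00 for all tested probes. Intervals were widest for SCD, from -1.14 to 1.10, so that a change as large as the fold limit in either direction lay within it.

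**Figure D4:**
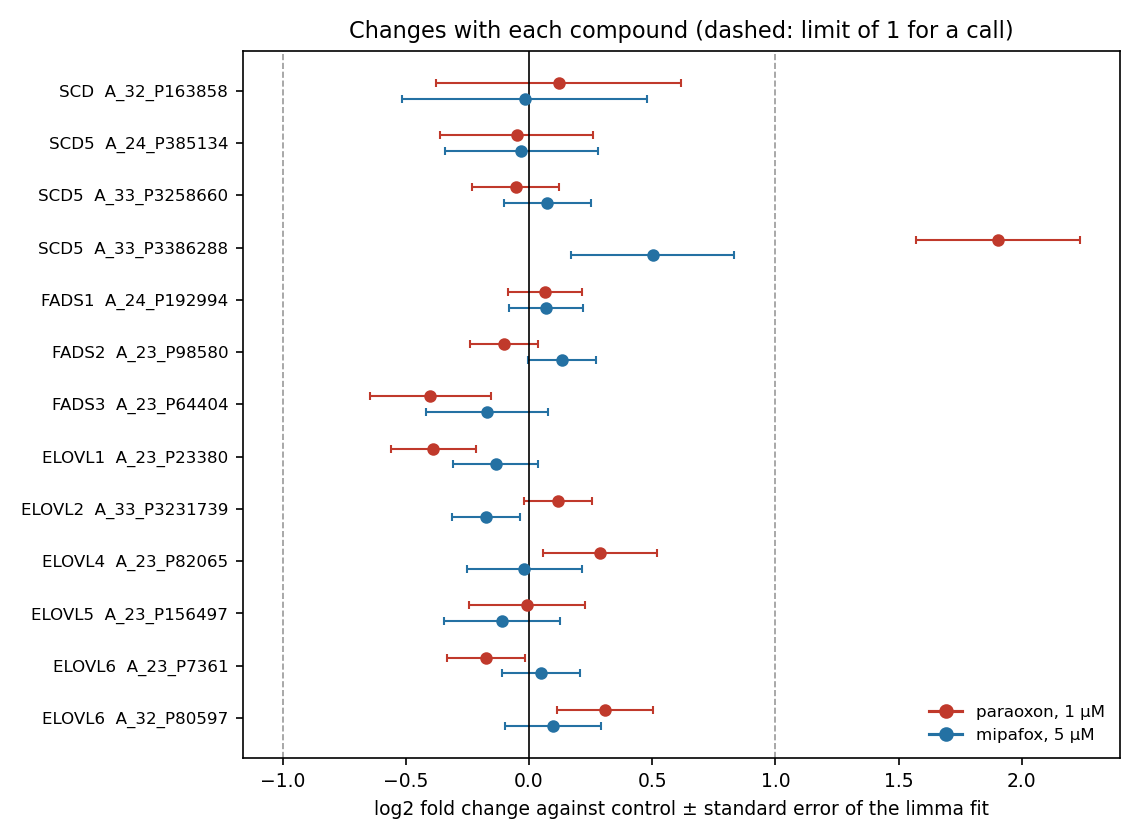
Log2 fold change against control with its standard error from the limma fit (horizontal axis) for the 13 tested probes, in red for 1 µM paraoxon and in blue for 5 µM mipafox, which share the 3 control arrays. Dashed lines mark the fold limit of 1. The value of 1.90 for SCD5 A_33_P3386288 with paraoxon is the only one beyond it, and SCD has the longest bars.

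Between the compounds, at their different doses, limma called 0 of the 13 tested probes for paraoxon against mipafox, as against 0.0% of all tested probes. At an unadjusted p under 0.05 with the fold limit it was again SCD5 A_33_P3386288 alone, where the share of all tested probes was 0.254%, and this count rests on the paraoxon arrays that chose the family. The paraoxon arrays lay above the mipafox arrays at that probe (5.12% of all tested probes) and below them at FADS2 and ELOVL1 (3.84%). Within slide 2, where paraoxon and mipafox B and C can be set against each other without a change of slide, ELOVL2 was 0.40 higher with paraoxon (standard error 0.16, adjusted p = 0.950 in limma) and SCD5 A_24_P385134 was 0.34 lower (standard error 0.31, adjusted p = 0.950 in limma). SCD, FADS1, ELOVL4, ELOVL5 and ELOVL6 A_32_P80597 differed there by 0.04 to 0.11. In the other direction, FADS2, SCD5 A_33_P3258660, ELOVL6 A_23_P7361, ELOVL1 and FADS3 differed by -0.23 to -0.10.

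Over the 13 tested probes, the step from mipafox A to mipafox B and C had a median size of 0.32, beside 0.30 for all tested probes, and it had the same sign as paraoxon minus control at 8 of 13 probes, beside 59.5% of all. Within slide 2 the median size of the paraoxon step was 0.11, beside 0.17 for all. SCD5 A_33_P3386288 and A_24_P385134 had the steps of largest size between mipafox A and mipafox B and C among the 13, at 1.23 and 0.96.

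**Figure D5:**
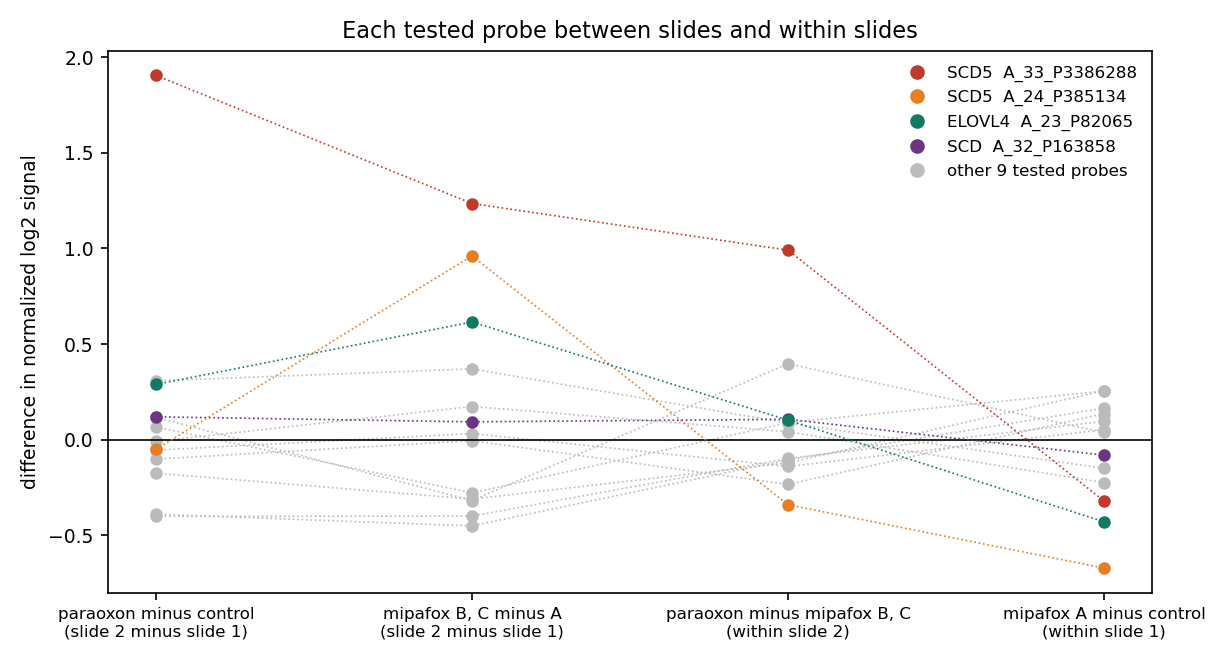
Difference in normalized log2 signal (vertical axis) for the 13 tested probes along 4 steps, those to the left between slides and those to the right within a slide; each dotted line joins the values of 1 probe and has no other meaning. SCD5 A_33_P3386288 is highest in the first 3 steps, at 1.90, 1.23 and 0.99, and lies at -0.32 within slide 1.

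The genes that work with the desaturases and elongases were counted over 5 lists of 51 genes, of which 46 had tested probes (61 probes). In limma 0 of the 61 probes were called in either direction in any of the 3 comparisons, as against 0.0% of all tested probes in each. At an unadjusted p under 0.05 with the fold limit it was also 0, as against 2.19% of all for paraoxon, 0.844% for mipafox and 0.254% between the compounds. The paraoxon arrays lay wholly below control at 11 of the 61 probes and wholly above it at 5, and over all tested probes these shares were 11.1% and 12.4%. For mipafox it was 6 below and 3 above, beside 6.46% and 5.34% of all. With paraoxon the median changes were -0.13 for the other elongases and enzymes of the elongation cycle, 0.01 for the other desaturases and their electron donors, -0.14 for fatty acid synthesis, 0.04 for regulators of lipogenic genes and -0.07 for the acyl-CoA synthetases. With mipafox they were -0.14, -0.03, -0.06, 0.04 and -0.27 in the same order.

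The central genes of these lists are given by their brightest probe. SREBF1, the transcription factor that drives SCD and many lipogenic genes, had signals of 3.63, 3.67 and 3.59 in control, of 3.55, 3.75 and 3.67 with paraoxon and of 3.89, 3.53 and 3.50 with mipafox. FASN, which makes palmitate, changed by -0.16 with paraoxon and -0.14 with mipafox, and ACACA, which makes its substrate malonyl-CoA, by 0.12 and -0.06. The ACACA probes disagreed in direction with paraoxon. At the brightest one the paraoxon arrays all lay above control. At the dimmer A_32_P215318 they all lay below it, with changes of -0.11 with paraoxon and -0.09 with mipafox. HSD17B12 and TECR, the reductases of the elongation cycle, changed by 0.14 and -0.28 with paraoxon and by -0.04 and 0.02 with mipafox. A dimmer probe of HSD17B12, A_33_P3335042, differed from the brightest one: it changed by -0.34 with paraoxon and by -0.52 with mipafox, whose arrays all lay below control (adjusted p = 0.664 in limma). CYB5A, the cytochrome that hands electrons to the desaturases, changed by 0.14 and -0.01. None of these probes passed the test. On paraoxon B and mipafox C, the arrays where SCD was highest, SREBF1 lay at 3.75 and 3.50, and on paraoxon C and mipafox B, where SCD was lowest, at 3.67 and 3.53.

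The patterns over the 9 arrays most like that of SCD5 A_33_P3386288, by Pearson correlation of the signal among 20746 other tested probes with a gene name, were those of NCRNA00201 (0.975), CMTM1 (0.975), SNRPD2P2 (0.968), KIAA0664 (0.965) and UCN3 (0.963), and 62 probes had a correlation over 0.9. CMTM1, for instance, had signals of -3.91, -4.14 and -3.72 in control, of -2.33, -2.03 and -2.44 with paraoxon and of -4.00, -3.03 and -3.08 with mipafox, with mipafox A at the control level and mipafox B and C above it, as at SCD5. Most like SCD were C13orf18 (0.959), C2orf68 (0.940), IMPA1 (0.928), FH (0.927) and SCPEP1 (0.926), with 23 probes over 0.9. The 9 points of each correlation share treatments and slides. Probes of the desaturase and elongase genes examined here were left out of this search, while those of other desaturases and elongases were eligible.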

How the data were processed

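Agilent one-colour arrays of NT2 cells were used, 3 per treatment. The authors read the spots as intensities with Feature Extraction from Agilent, version 10.5.1.1 per the labels, and deposited the processed signal on a linear scale, together with a table of processed log2 values of the same arrays. The paper names normalization and filtering after a package manual without naming the steps. Here log2 of the deposited intensity was taken, the 75th percentile of each array subtracted, control and outlier spots left out (0 of 162 member spot values were outliers) and spots of a probe averaged. A probe was kept where all arrays of some treatment had it well above background and each treatment had 2 values or more. The 29134 probes kept were fitted in limma 3.58.1 (R 4.3.3), 1 mean per treatment, with Benjamini-Hochberg adjustment over all of them. Precision is limited by the number of arrays. The fit was tested on simulated data. Members, gene lists and tests were chosen with earlier results of these data known. Named genes are all members, the brightest probe of 6 central pathway genes, pathway genes past both an unadjusted p under 0.05 and the fold limit (there were 0) and the 5 most correlated probes. Lists were the other elongation enzymes, other desaturases with electron donors, fatty acid synthesis, lipogenic regulators, acyl-CoA synthetases and 6 marker lists. Figures were drawn with matplotlib 3.10.9. The paper's Gene Ontology results were not used here.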

Additional observations from a re-analysis of the deposited data

How the results depend on the processing

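The number of arrays and 2 slides limit all values. SCD5 A_33_P3386288 differed from control with paraoxon by 1.08 in the deposited log2 values, 1.00 after normexp and 0.67 with slide as a fixed block, with mipafox by -0.32 with that block or within slide 1, and between the compounds by 0.85 in the deposited values and 0.79 after normexp; leaving out 1 array gave 1.77 to 2.11, 0.29 to 0.91 and 0.99 to 1.61. The number of member probes called for paraoxon, 0 in limma over all arrays, was 1 with array weights, 1 with only the control and paraoxon arrays, 1 at an unadjusted p, and 0 to 1 with 1 array left out (1 without mipafox A); for paraoxon against mipafox it was 1 at an unadjusted p. The median of the 13 tested probes between the compounds, 0.00, ranged from -0.16 (without paraoxon B) to 0.22 (without mipafox C). Over all tested probes, calls for paraoxon were 0 in limma over all arrays. They were 671 with array weights, 276 with only the 2 treatments, 1 with the slide block and 638 at an unadjusted p. Without mipafox A, B and C they were 276, 93 and 1. For mipafox they were 0, then 800 with array weights, 6 with the slide block, 246 at an unadjusted p and 76 without mipafox A. For paraoxon against mipafox they were 74 at an unadjusted p. The counts of 0 differ from the paper, which at the same limits reports genes altered by paraoxon and 1 gene altered by mipafox. No label ties arrays of the same letter together, and the correlations of their deviations ranged from -0.60 to 0.57 (for letter A from 0.17 to 0.26); with the letter as a replicate block the probe changed by 1.90 with paraoxon and 0.50 with mipafox, and 0 member probes were called. Other settings left these counts of member probes at 0. With array weights, but within the fold limit, adjusted p-values in limma fell under 0.05 for SCD5 A_33_P3386288 (0.69) and A_33_P3258660 (0.38) with mipafox and for ELOVL6 A_32_P80597 (0.38) with paraoxon. After the data were seen, leaving out paraoxon B and mipafox C together was added, and it called 0 member probes. The cause of each change was not tested.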

Other observations

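Among the pathway genes, and chosen after its values were seen, MBTPS2 (A_23_P114095), the protease that releases the active part of the SREBP factors, had signals of -2.05, -2.08 and -2.16 in control, of -2.60, -2.66 and -2.85 with paraoxon and of -2.63, -2.67 and -2.77 with mipafox. All 6 treated arrays lay below all control arrays, including mipafox A, which shared slide 1 with them. The difference was -0.60 with paraoxon (adjusted p = 0.095 in limma) and -0.59 with mipafox (adjusted p = 0.340 in limma), and both comparisons use the same control arrays. Over all tested probes, 11.1% had every paraoxon array below control and 6.46% every mipafox array. Because the control arrays are shared, these shares do not give the share with both at once, which was not counted. This order was not particular to MBTPS2, as FASN, HACD2 A_33_P3244194 and A_33_P3350726 of the regulators also had it with both compounds. That HACD2 probe, of the elongation cycle, changed by -0.79 with paraoxon (adjusted p = 0.109 in limma) and by -0.42 with mipafox. The other HACD2 probe changed by -0.003 with paraoxon.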
